A study of Homo sapiens with 11 samples.

Results

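The 9 genes that write or erase DNA methylation (DNMT1, DNMT3A, DNMT3B, DNMT3L, UHRF1, TET1, TET2, TET3 and TDG) were followed in total RNA of HCT116 cells, a line established from a human colorectal carcinoma. They were chosen by symbol, and all 9 were found among the 58699 genes of the authors' deposited table. All cells received an siRNA, aimed either at luciferase (siLuc), which serves as control, or at the double-stranded RNA binding protein Staufen1 (siStau1), and either the solvent DMSO or decitabine (DAC), per the labels at 500 nM for 5 days. Each siRNA was combined with each treatment, giving 4 groups of 2 libraries. The table gives 1 FPKM value (a fragment count scaled by transcript length and library size) per group and none per library. Neither a spread over replicates nor the depth is therefore known. The labels do not say whether the 2 libraries of a group came from separate cultures, so the authors' p-values may measure technical spread only.

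DNA methylation in mammals sits mainly on the cytosine of CpG pairs. DNMT1 copies it onto the new strand after replication, guided by UHRF1, which binds hemimethylated DNA, while DNMT3A and DNMT3B methylate sites that were unmethylated and DNMT3L, which has no catalytic activity, stimulates them. The TET enzymes oxidise 5-methylcytosine, and TDG, a glycosylase, cuts out the most oxidised forms so that base excision repair can restore cytosine. Decitabine is a cytidine analog that, once built into DNA, traps the methyltransferases as covalent complexes, and DNMT1 protein is lost in this way. The table measures RNA, so that step is not seen here.

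The main values turned on 4 genes: TET3, the only member called for DAC within an siRNA arm, TET1 and TDG, which had the lowest DAC ratios in siLuc, and DNMT1, the most abundant member. A promoter window of each is shown because CpG pairs are what these enzymes act on. Each line gives the 250 bases before a RefSeq start site (GRCh38.p14, 5′ to 3′ on the strand of the gene), with CpG pairs in capitals.
TET3, chr2:73984660-73984909, plus strand: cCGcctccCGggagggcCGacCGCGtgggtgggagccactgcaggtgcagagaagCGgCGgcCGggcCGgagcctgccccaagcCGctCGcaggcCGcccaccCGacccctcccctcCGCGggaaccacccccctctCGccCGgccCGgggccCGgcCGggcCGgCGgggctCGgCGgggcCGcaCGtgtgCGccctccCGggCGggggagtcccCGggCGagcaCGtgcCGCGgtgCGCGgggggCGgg
TET1, chr10:68560087-68560336, plus strand: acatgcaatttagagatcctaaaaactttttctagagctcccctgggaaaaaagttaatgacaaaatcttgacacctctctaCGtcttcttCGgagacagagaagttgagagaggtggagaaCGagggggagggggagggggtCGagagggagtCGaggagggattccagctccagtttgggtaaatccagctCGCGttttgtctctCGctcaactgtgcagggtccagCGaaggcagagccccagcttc
TDG, chr12:103965622-103965871, plus strand: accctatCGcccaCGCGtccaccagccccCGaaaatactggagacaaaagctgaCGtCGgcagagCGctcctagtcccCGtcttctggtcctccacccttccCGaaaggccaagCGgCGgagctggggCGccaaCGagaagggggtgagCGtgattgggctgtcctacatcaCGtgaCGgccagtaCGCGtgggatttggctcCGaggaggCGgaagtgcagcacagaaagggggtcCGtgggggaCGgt
DNMT1, chr19:10194954-10195203, minus strand: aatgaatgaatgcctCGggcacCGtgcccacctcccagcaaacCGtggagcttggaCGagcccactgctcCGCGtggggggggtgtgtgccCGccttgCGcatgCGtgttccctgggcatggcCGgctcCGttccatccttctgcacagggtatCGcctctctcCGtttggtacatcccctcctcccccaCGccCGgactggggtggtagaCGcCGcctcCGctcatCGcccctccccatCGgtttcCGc
The TET3 window held 37 CpG pairs, more than 96.0% of the 35116 RefSeq windows of the same length. Its start site lies 1494 bases before the GENCODE gene of TET3 measured here, with a non-coding gene, AC073046.1, between them. The other RefSeq window of TET3 held 27 CpG pairs, more than 82.3% of windows. The TET1 window held 9, close to the median of 11 over all windows, with 45.9% of windows below it. TDG had 22 and DNMT1 had 21, above 72.0% and 69.8% of windows. Where a gene has several RefSeq starts, the window nearest the 5′ end of the GENCODE gene was taken. The count of CpG pairs describes sequence only, and methylation was not analysed here. RefSeq windows were found for 8 members, 19 windows in all. Letters of the kind bound by E2F, the factor of S phase genes (TTTCCCGC, TTTGGCGC or TTTCGCGC, either strand), occurred in 2 of the 3 windows of UHRF1 and in no window of the other 7 members, against 2.32% of all windows. Other E2F-like letters were not searched. The nearest windows of UHRF1, DNMT3B and DNMT1 lie 6421, 17467 and 36333 bases from the 5′ ends of their GENCODE genes, so other starts may be missed.

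Both siRNA arms held the members at widely different levels, compared here per length in FPKM. DNMT1 (ENSG00000130816.15, chromosome 19, 10133345 to 10231286, GRCh38, minus strand) had 115 FPKM (siLuc) and 204 (siStau1) under DMSO, and 86.2 and 79.4 under DAC, above at least 94.5% of protein-coding genes in every group. Its 4 values lay above every value of every other member. S1PR2, which overlaps DNMT1 on the same strand, had 1.26 to 3.37 FPKM. Next were UHRF1 with 19.5 to 24.9 FPKM, TDG with 7.37 to 22.7 and DNMT3B with 8.65 to 11.2. The ranges of UHRF1 and TDG overlapped over the 4 groups, as did those of TDG and DNMT3B. TET2 followed with 4.20 to 6.61 FPKM, apart from its neighbours on both sides. TET3 (1.51 to 3.73 FPKM), DNMT3A (1.79 to 2.99) and TET1 (0.625 to 2.16) overlapped one another and could not be ordered. DNMT3L (ENSG00000142182.8, chromosome 21, 44246339 to 44262216) was listed at 0 in 3 groups and had 0.193 FPKM in siLuc DAC. The authors' program did not test DNMT3L in any comparison, so 8 of the 9 members had a test.

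**Figure D1:**
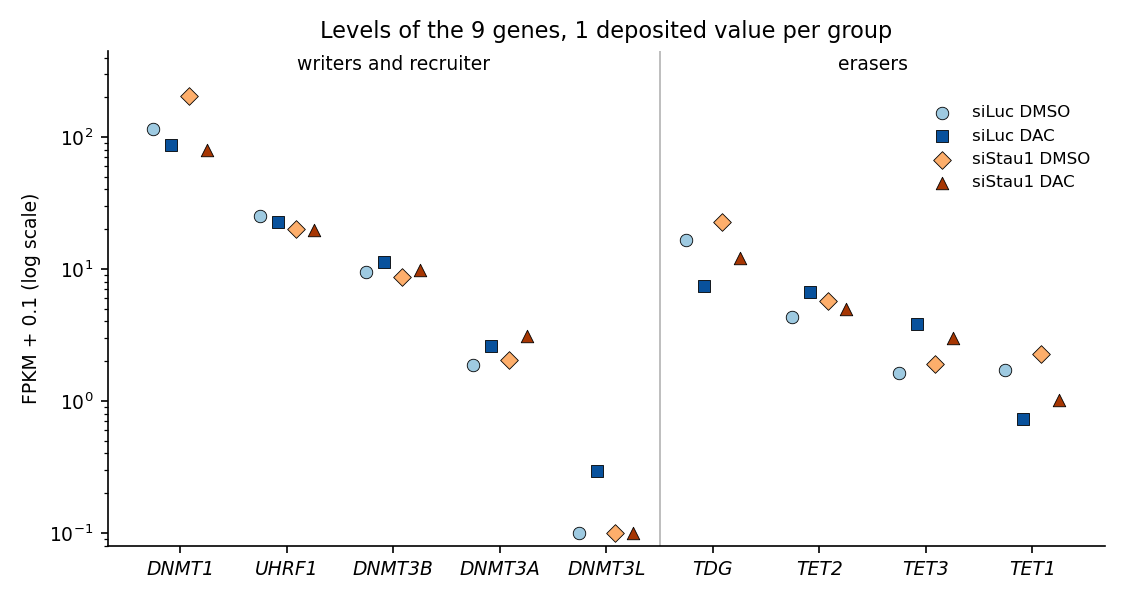
FPKM plus 0.1 (log axis) of each of the 9 genes in the 4 groups, 1 deposited value per group, with no error bars because no value per library is given. DNMT1 stands above all others at 79.4 FPKM or more, and DNMT3L, listed at 0 in 3 groups, sits at the bottom of the axis.

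The groups were checked before the comparisons were read. STAU1, the targeted gene, had 35.5 FPKM in siLuc DMSO and 29.98 in siStau1 DMSO, and 33.7 and 27.1 with DAC. Its q-values for the knockdown in the authors' deposited table were 0.767 and 0.685, so a lower mRNA level was not called and the groups labelled siStau1 are called so by their labels. Of 6 epithelial markers, 5 had at least 1 FPKM in every group (EPCAM, CDH1, KRT8, KRT18 and CDX2), and VIL1 had at most 0.198. Their sum was 2064 FPKM (siLuc) and 1700 (siStau1) under DMSO, and 6779 and 4895 under DAC, most of it KRT8 and KRT18. EPCAM was lower with DAC, at 117 against 259 FPKM in siLuc and 179 against 338 in siStau1. Markers of fibroblasts summed to 1.77 and 1.21 FPKM in siLuc DMSO and siStau1 DMSO, and to 10.5 and 6.48 with DAC, most of it COL1A1. The 4 leukocyte markers summed to at most 0.0983 FPKM with DMSO and 2.62 with DAC, and the 3 endothelial markers to at most 0.139 and 1.57. PTPRC, CDH5 and COL1A2 were listed at 0 in both DMSO groups. The part of these markers in the results was not tested. In bulk RNA, fewer cells of a kind and less RNA per cell cannot be told apart.

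What DAC did to these genes in control cells was read from siLuc DAC against siLuc DMSO. TET3 rose, from 1.51 to 3.73 FPKM, and no other member was called. TET1 and TDG stood lower with DAC, at 0.625 against 1.62 FPKM and 7.37 against 16.5 FPKM, without a call. Thus 1 of 8 tested members was called, at a q-value under 0.05, against 13.5% of the 17504 tested genes. With 8 genes, 1 call is near what that share gives. The median log2 ratio of the 8 members was 0.06, against 0.23 over all tested genes. The FPKM of all genes summed to 1129076 in siLuc DMSO and 1793611 in siLuc DAC, and the part of this scaling in the ratios was not tested beyond the centring given further on. Log2 ratios are DAC over DMSO with 0.1 added to each FPKM, which understates the change of low genes.

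Among the erasers, the 3 TET genes had unlike ratios. TET3 (ENSG00000187605.15, chromosome 2, 73986404 to 74108176, plus strand) had 1.51 FPKM (siLuc) and 1.81 (siStau1) under DMSO, and 3.73 and 2.89 under DAC. Both DAC groups were above both DMSO groups. Its log2 ratio in siLuc was 1.25, a 2.46-fold higher level, and the authors' deposited table gives the q-value 0.0234. The share of tested genes called upward was 8.71%. With a q-value limit of 0.01, which 7.97% of tested genes passed, the call was lost. In siStau1 the log2 ratio was 0.65, with a q-value of 0.411, so no rise was called there. A non-coding gene, AC073046.1, ends 60 bases before TET3 on the same strand, and how reads at that boundary were divided is not given in the sources used here.

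TET1 (ENSG00000138336.8, chromosome 10, 68560656 to 68694482, plus strand) had 1.62 FPKM (siLuc) and 2.16 (siStau1) under DMSO, and 0.625 and 0.920 under DAC. Both DAC groups lay below both DMSO groups, the opposite order to TET3. Its log2 ratio was −1.25 in siLuc and −1.15 in siStau1. The q-values in the authors' deposited table were 0.0591 and 0.0862. When the deposited p-values were adjusted within each comparison only, they became 0.0331 and 0.0856, so the siLuc value depended on the adjustment. By that adjustment 16.8% of tested genes passed in siLuc and 7.43% in siStau1. Because TET1 was under 1 FPKM in both DAC groups, its ratio rests on low levels.

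TET2 (ENSG00000168769.13, chromosome 4, 105145875 to 105279816), the most abundant TET gene in all 4 groups, had 4.20 FPKM (siLuc) and 5.64 (siStau1) under DMSO, and 6.61 and 4.89 under DAC. Its DAC groups did not lie on one side of its DMSO groups. The log2 ratios of 0.64 and −0.20 had q-values of 0.461 and 0.861 in the authors' deposited table, and the sign in siStau1 turned to 0.11 after centring on genes of like GC content.

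As shares of the family, TET1 and TET3 were near equal with solvent, and TET3 was the larger with DAC. TET1 made up 22.1% of the summed TET FPKM in siLuc DMSO and 22.5% in siStau1 DMSO, but 5.70% in siLuc DAC and 10.6% in siStau1 DAC. TET3 made up 20.6% and 18.8% with DMSO and 34.01% and 33.2% with DAC, while TET2 stayed between 56.2% and 60.3%. TET3 over TET1 was 0.931 and 0.836 with DMSO, near equal levels, and 5.96 and 3.14 with DAC. The summed TET level was 7.33 FPKM (siLuc) and 9.61 (siStau1) under DMSO, and 10.96 and 8.70 under DAC, higher with DAC in siLuc and lower in siStau1. These shares are descriptions without a test, from FPKM not centred on GC content. Genes with a GC content like that of TET1 and TET3 had median DAC log2 ratios of −0.59 and 0.31 in siLuc.

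TDG (ENSG00000139372.14, chromosome 12, 103965804 to 103988874, plus strand) had 16.5 FPKM (siLuc) and 22.7 (siStau1) under DMSO, and 7.37 and 11.9 under DAC. As for TET1, both DAC groups lay below both DMSO groups. The log2 ratios were −1.15 in siLuc and −0.92 in siStau1, with q-values of 0.117 and 0.214 in the authors' deposited table. TDG over the summed TET level was 2.24 and 2.36 with DMSO and 0.672 and 1.37 with DAC.

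**Figure D2:**
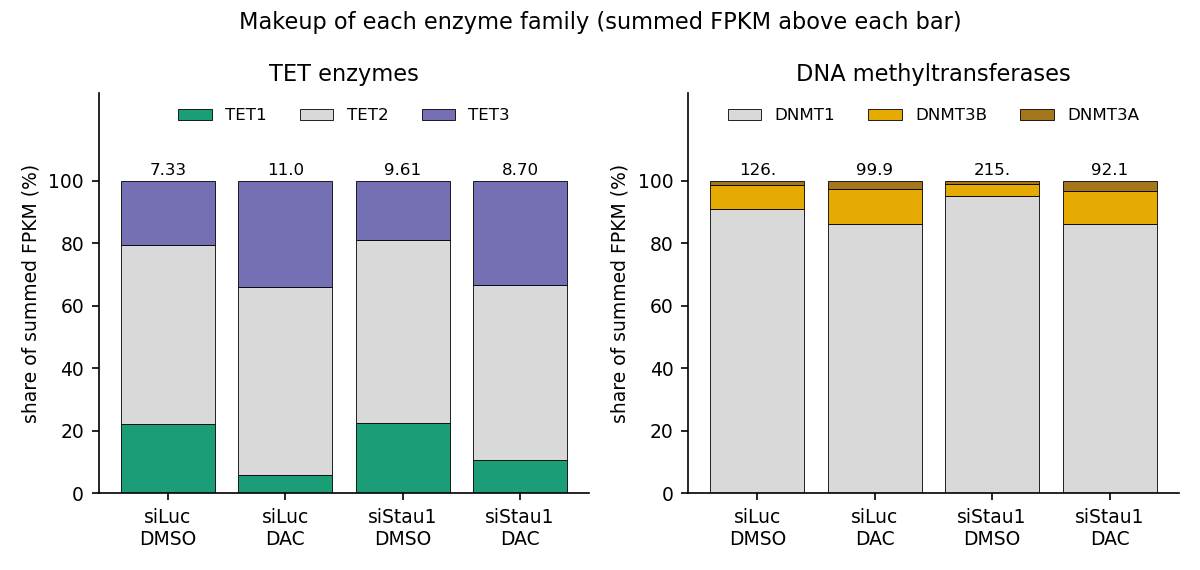
Share (%) of TET1, TET2 and TET3 in the summed TET FPKM, and of DNMT1, DNMT3B and DNMT3A in the summed methyltransferase FPKM, in each of the 4 groups (1 deposited value each), with the sums printed above the bars. TET1 holds 22.1% and 22.5% of the TET sum with DMSO and 5.70% and 10.6% with DAC.

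Among the writers, none was called for DAC in either arm. DNMT1 had the log2 ratios −0.41 in siLuc and −1.36 in siStau1, where the levels were 204 FPKM with DMSO and 79.4 with DAC. The latter was the largest ratio in size of any member in that arm, yet its p-value in the authors' deposited table was 0.169 and its q-value 0.533. TET1, with a ratio of −1.15 in the same arm, had a p-value of 0.00815. DNMT1 made up 91.1% and 95.1% of the summed methyltransferase FPKM with DMSO and 86.3% and 86.2% with DAC.

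UHRF1 (ENSG00000276043.4, chromosome 19, 4903080 to 4962154), which brings DNMT1 to replicated DNA, had 24.9 FPKM (siLuc) and 20.03 (siStau1) under DMSO, and 22.7 and 19.5 under DAC, the narrowest spread of the 8 tested members at 1.27-fold. Its DAC log2 ratios were −0.13 and −0.04. DNMT1 over UHRF1 was 10.2 in siStau1 DMSO, the group in which DNMT1 was highest, and between 3.79 and 4.61 in the other 3 groups.

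Before centring on GC content, the de novo enzymes had ratios above 0 in both arms. DNMT3A (ENSG00000119772.16, chromosome 2, 25227855 to 25342590) had 1.79 FPKM (siLuc) and 1.92 (siStau1) under DMSO, and 2.52 and 2.99 under DAC. Its DAC groups were both above its DMSO groups, with log2 ratios of 0.47 and 0.61 and q-values of 0.629 and 0.594 in the authors' deposited table. Centred on GC content, the DNMT3A ratios were 0.04 and 0.24, with 52.2% and 67.3% of genes of like GC content lower. DNMT3B (ENSG00000088305.18, chromosome 20, 32762385 to 32809356) had 9.42 FPKM (siLuc) and 8.65 (siStau1) under DMSO, and 11.2 and 9.70 under DAC. Its ratios were 0.25 and 0.16 and became −0.19 and −0.21 after centring on GC content, so no direction can be given for DNMT3B. DNMT3B over DNMT3A lay between 3.24 and 5.28 in all 4 groups.

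Staufen1 knockdown cells gave no called member for DAC, against 7.46% of the 16979 tested genes. By the unadjusted p-values of the authors' deposited table, 3 of 8 members passed 0.05 in siLuc (TET3, TET1 and TDG), against 28.9% of tested genes. In siStau1, TET1 and TDG passed, against 19% of tested genes. With 8 genes, these counts are near what the background share gives.

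**Figure D3:**
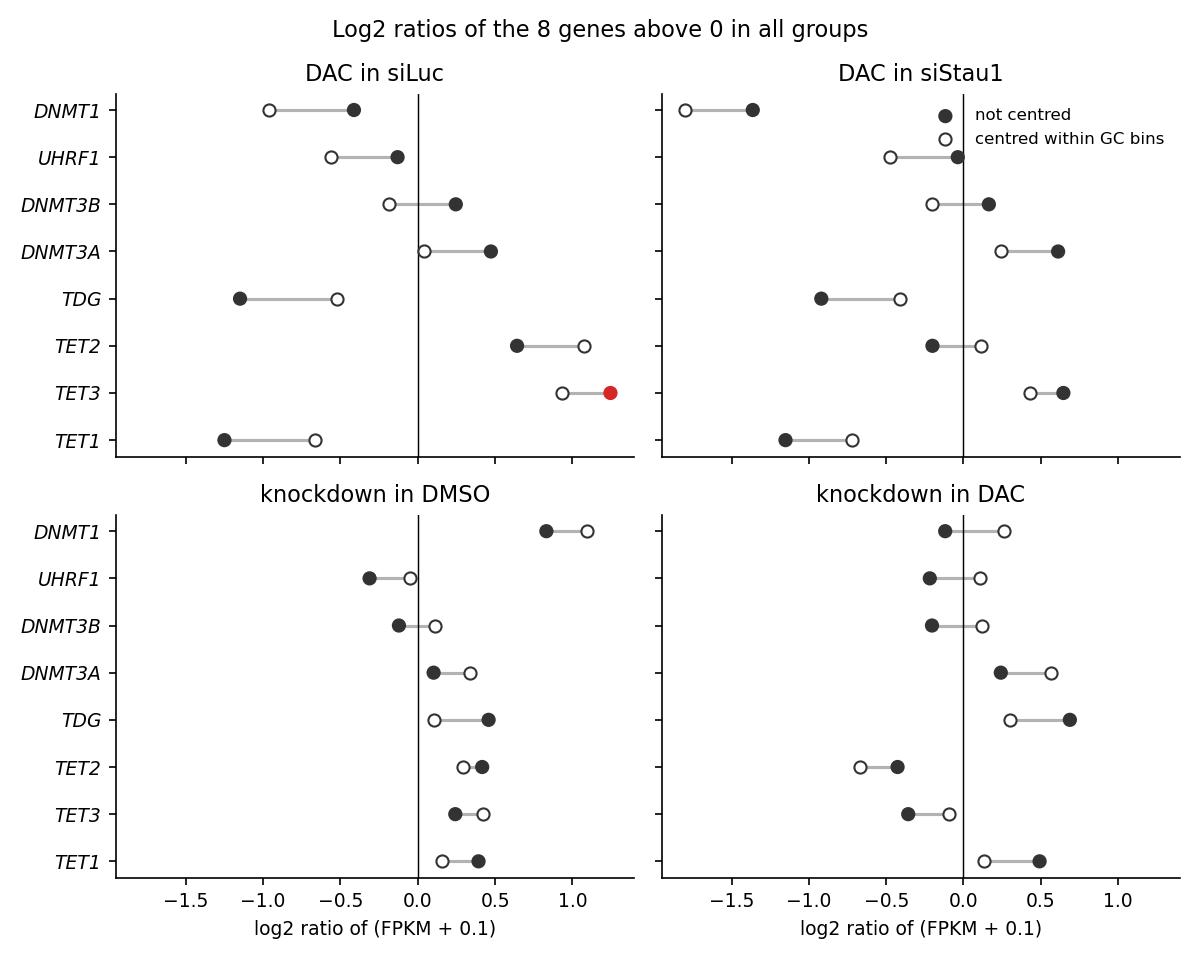
Log2 ratios (x axis, FPKM plus 0.1) of the 8 members above 0 in all groups for the 4 comparisons, without centring (filled) and centred within bins of transcript GC content (open); red marks the call in the authors' deposited table. TET3 in siLuc, at 1.25, is the single red point, and both knockdown panels hold no call.

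The DAC ratios and the knockdown ratios of protein-coding genes went with the GC content of their transcripts, which bears on the members. Across 10953 protein-coding genes of 1 FPKM or more in each group (genes are no independent replicates), Spearman's rho of the log2 ratio with GC content was 0.659 in siLuc. For DAC in siStau1 it was 0.624. The knockdown comparisons gave −0.487 under DMSO and −0.715 under DAC, so such a trend was not particular to DAC. TDG and TET1 have the lowest GC content of the members, 39.5% and 41.0%, and their GC bins had median ratios of −0.63 and −0.59 in siLuc. Centred on those medians, TDG was at −0.52 and TET1 at −0.66, and 23.6% and 19.0% of the genes of their bins lay lower. TET3, at 52.3% GC, was at 0.93 after centring, with 88.7% of its bin below. TET2, at 43.0% GC, was at 1.08, with 91.4% below, and UHRF1 at −0.56, with 19.9% below. DNMT1, at 55.4% GC, was at −0.96 in siLuc and −1.80 in siStau1, and 9.32% and 0.548% of the genes of its bin lay lower. The siStau1 ratio of DNMT1 used 204 FPKM in siStau1 DMSO, where siLuc DMSO had 115. Against siLuc DMSO, the log2 ratio of DNMT1 in siStau1 DAC was −0.53. It was −0.74 after centring, with 7.99% of the bin lower. The part of GC content in these ratios was not tested beyond this centring, and the calls are those of the uncentred values.

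**Figure D4:**
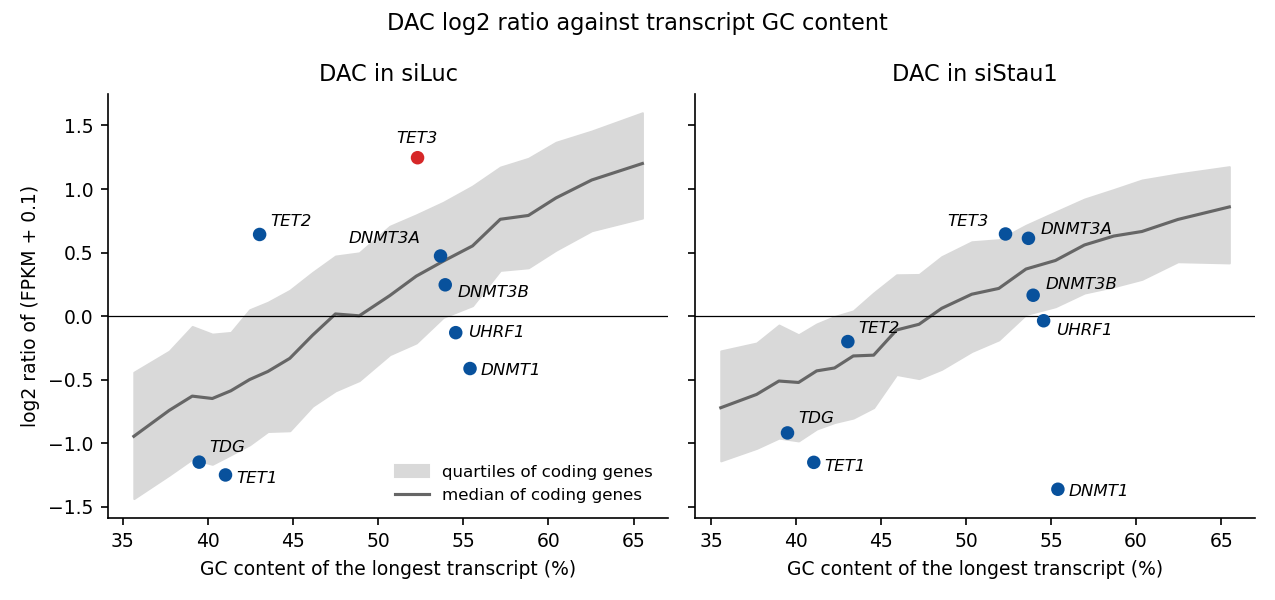
DAC log2 ratio (y axis, FPKM plus 0.1) against GC content of the longest transcript (x axis, %) for siLuc and siStau1, with the median and quartiles of protein-coding genes in 20 bins and the 8 members as points (red: called in the authors' deposited table). TDG and TET1 lie at the GC-poor end where the median is below 0. DNMT1 in siStau1 lies far under the band at −1.36, a ratio that was not called (q-value 0.533).

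The 2 arms were set side by side for the DAC effect. The ratio in siStau1 minus that in siLuc was −0.95 for DNMT1, −0.84 for TET2 and −0.60 for TET3. All 3 lay under the lower quartile of −0.44 over 15956 genes tested in both arms, and 9.62%, 11.7% and 18.6% of these genes lay lower. The other 5 members (DNMT3A, DNMT3B, UHRF1, TET1 and TDG) lay between −0.08 and 0.23, inside the quartiles. With 1 value per group the difference could not be tested.

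Without DAC, the knockdown was read from siStau1 DMSO against siLuc DMSO. No member was called of 8 tested, against 0.799% of 15893 genes, and none had an unadjusted p-value under 0.05 in the authors' deposited table, against 4.3% of genes. The highest log2 ratio was that of DNMT1 at 0.83, from 115 to 204 FPKM, with a q-value of 0.677. TDG, TET2 and TET1 had 0.46, 0.42 and 0.39, TET3 0.24 and DNMT3A 0.10, while DNMT3B had −0.12 and UHRF1 −0.31. After GC centring DNMT1 was at 1.09, TET3 at 0.42, DNMT3A at 0.33 and TET2 at 0.29. TET1, DNMT3B and TDG were then at 0.16, 0.11 and 0.11, and UHRF1 at −0.05. Without centring, the median over the 8 was 0.32, against −0.02 over all tested genes. This comparison shares siLuc DMSO with DAC in siLuc and siStau1 DMSO with DAC in siStau1, so the high DNMT1 value of siStau1 DMSO enters 2 of the ratios given for that gene.

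Under DAC, siStau1 against siLuc called no member either, against 0.904% of 17263 genes, and none passed an unadjusted p-value of 0.05, against 6.95% of genes. The log2 ratio was highest for TDG at 0.69, from 7.37 to 11.9 FPKM, at the q-value 0.442 in the authors' deposited table, and lowest for TET2 at −0.43 (q-value 0.627) and TET3 at −0.36 (0.687). TET1 had 0.49 and DNMT3A 0.24. After GC centring DNMT3A was highest at 0.56, with TDG at 0.30, TET1 at 0.13, TET3 at −0.09 and TET2 at −0.67. DNMT1, DNMT3B and UHRF1 had −0.12, −0.20 and −0.22, and all 3 turned to between 0.11 and 0.26 after GC centring. The median of all tested genes was itself −0.14 here, close to the median of −0.16 over the members.

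The remaining pairs of groups differ in both siRNA and drug. In siStau1 DAC against siLuc DMSO no member was called, against 4.98% of genes, and TET3 alone passed an unadjusted p-value of 0.05 (p = 0.0253 in the authors' deposited table, log2 ratio 0.89), against 13.6% of genes. In siLuc DAC against siStau1 DMSO, TET1 and TDG fell, by 1.64 and 1.61 on the log2 scale, with q-values of 0.00917 and 0.00825. That is 2 of 8 members, against 16.7% of genes called and 7.31% called lower. By unadjusted p-value TET3 passed too, against 33.1% of genes. After GC centring their ratios were −0.85 and −0.70, with 17.9% and 23.2% of the genes of their bins lower. These groups held the lowest and the highest of the 4 values of both genes. TET3 had a log2 ratio of 1.00 and the q-value 0.0844 there.

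Other genes of the pathway were read from 6 lists. Of their 52 genes tested for DAC, 12 were called in siLuc and 8 in siStau1, against 13.5% and 7.46% of all tested genes. Of 9 partners in maintenance and chromatin, 8 were tested, and for DAC in siLuc 1 fell: CDCA7, which works with the remodeller HELLS, from 34.1 to 14.3 FPKM (q-value 0.0260, authors' deposited table). The log2 ratio of CDCA7, −1.24, was −0.60 after GC centring, with 23.0% of the genes of its bin lower. In siStau1 TRDMT1, a DNMT family member that methylates tRNA, fell from 10.2 to 1.99 FPKM (q-value 0.0483). Its level in siStau1 DMSO stood apart from the other groups, with 2.59 FPKM in siLuc DMSO and 1.35 in siLuc DAC. Against siLuc DMSO the log2 ratio of siStau1 DAC was −0.36 (q-value 0.849). The list's median log2 ratio was −0.66 in siLuc and −0.76 in siStau1, and −0.08 and −0.34 after GC centring.

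Of 7 genes listed as readers of methylated CpG or as members of their protein family, 2 rose with DAC in siLuc. There, 8.71% of all tested genes were called higher. MBD1 went from 9.76 to 33.7 FPKM (q-value 0.00415 in the authors' deposited table) and MBD3, a subunit of the NuRD repressor complex, from 11.7 to 49.5 (q-value 0.00525). None was called in siStau1, and the medians of the list were 0.10 and 0.19, beside 0.23 and 0.11 over all tested genes, and 0.01 and 0.08 after GC centring.

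Of 13 genes of base excision and demethylation, 1 rose and 3 fell in siLuc, against 13.5% of all tested genes called either way. GADD45B, a stress gene linked to demethylation, rose from 8.63 to 55.9 FPKM. The glycosylase NEIL3 fell from 12.0 to 3.79 FPKM, APEX1, the endonuclease that acts after TDG, from 121 to 56.0, and PARP1, a sensor of DNA breaks, from 130 to 69.1. Their q-values in the authors' deposited table were 0.00162, 0.0101, 0.0488 and 0.0372. In siStau1 GADD45B rose from 4.98 to 26.03 FPKM (q-value 0.00162) and NEIL3 fell from 13.8 to 5.998 (0.0445), against 7.46% of all tested genes called. The list's medians were −0.18 and 0.14, and −0.51 and −0.30 after GC centring.

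Among 7 genes of TET cofactor supply and control, 6 were tested and the same 2 fell with DAC in both arms, where 13.5% and 7.46% of all tested genes were called. IDH1, which makes the 2-oxoglutarate that TET enzymes use, went from 79.9 to 18.4 FPKM (siLuc) and from 107 to 30.1 (siStau1), each at the q-value 0.00162 in the authors' deposited table. CXXC5, a CXXC-domain protein known to regulate TET2, went from 15.2 to 6.05 and from 16.3 to 7.37 FPKM, with q-values of 0.0208 and 0.0372. After GC centring these 4 ratios lay between −2.11 and −1.51. The list's medians were −0.48 and −0.24, and −1.35 and −0.65 after GC centring.

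Of 6 genes of the S-adenosylmethionine cycle, which supplies the methyl group, MAT2B fell in both arms, from 48.1 to 18.6 FPKM and from 56.0 to 27.2 (q-values 0.00162 and 0.0194 in the authors' deposited table). Its log2 ratios of −1.37 and −1.04 became −0.42 and −0.32 after GC centring. AHCYL1, a relative of the enzyme that clears S-adenosylhomocysteine, fell in siStau1 from 24.8 to 11.6 FPKM (q-value 0.0228). In siLuc AHCYL1 went from 20.7 to 9.58 FPKM without a call (q-value 0.0679), and the log2 ratios were −1.08 and −1.10. That is 1 of 6 genes called in siLuc and 2 of 6 in siStau1, against 13.5% and 7.46% of all tested genes. The list's medians were 0.08 in siLuc and −0.23 in siStau1, and 0.07 and −0.28 after GC centring.

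DNMT1 and UHRF1 are highest in dividing cells, so 12 genes of S phase and proliferation were set beside them. In siLuc PCNA and TOP2A fell with DAC, from 334 to 130 FPKM and from 58.4 to 21.1, each at the q-value 0.00162 in the authors' deposited table. In siStau1 PCNA fell, from 363 to 183 FPKM (q-value 0.0228). TOP2A had 149 FPKM in siStau1 DMSO and 39.2 in siStau1 DAC, a log2 ratio of −1.93 that was not called (q-value 0.0587). The shares of all tested genes called for DAC were 13.5% and 7.46%. The list's median log2 ratio was −0.60 in siLuc and −0.53 in siStau1, beside 0.23 and 0.11 over all tested genes. The list did not move as one, with 3 of 12 ratios above 0 in siLuc and 5 of 12 in siStau1. After GC centring the list's medians were −0.55 and −0.41. Its summed level was 1649 FPKM (siLuc) and 1701 (siStau1) under DMSO, and 1305 and 1256 under DAC. The part of proliferation in the values of DNMT1 and UHRF1 was not tested. In the authors' deposited table no gene of these 6 lists was called in either knockdown comparison, where 0.799% and 0.904% of all tested genes were. By unadjusted p-value, 2 of 51 passed 0.05 under DMSO (TOP2A and TRDMT1, both higher in siStau1) and 6 of 52 under DAC, against 4.3% and 6.95% of all tested genes.

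**Figure D5:**
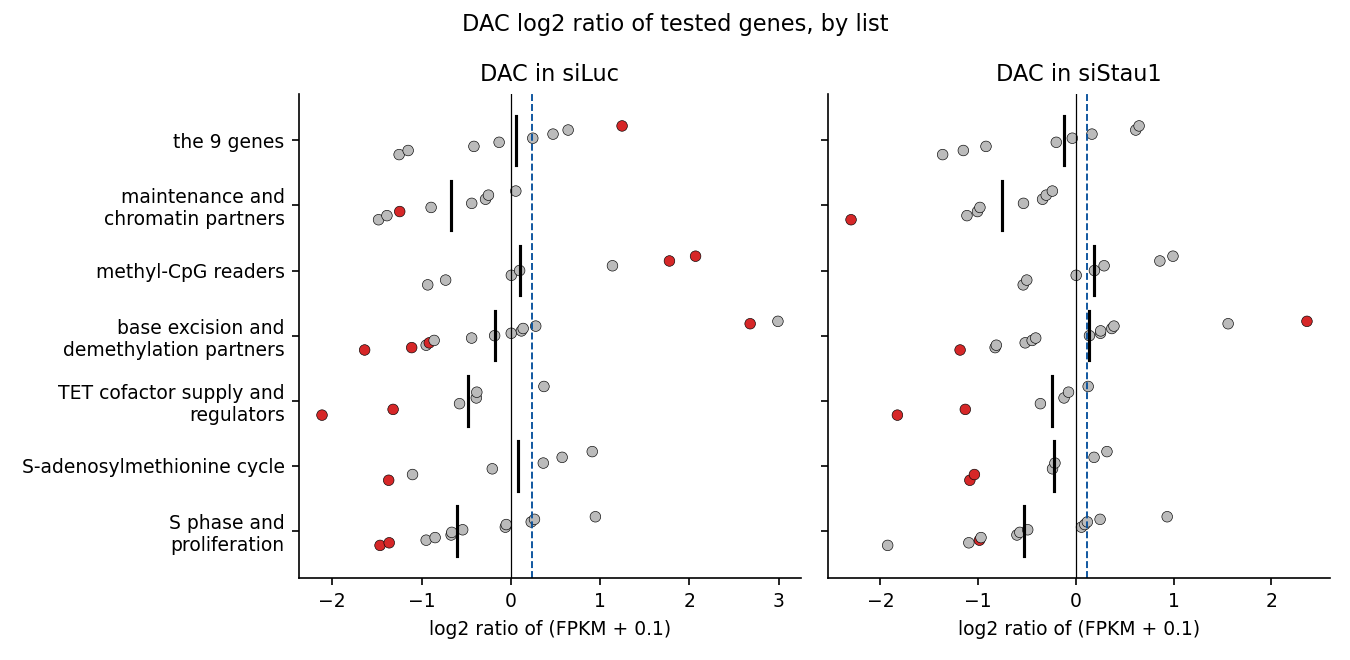
DAC log2 ratio (x axis, FPKM plus 0.1) of each tested gene of the 9-gene set and of 6 lists, in siLuc and siStau1; red points are calls in the authors' deposited table, black bars list medians and the dashed line the median of all tested genes (0.23 and 0.11). GADD45B lies far to the right, at 2.68 in siLuc and 2.36 in siStau1, while GADD45G of the same list, at 2.99 in siLuc, was not called (q-value 0.607), and IDH1 is the lowest point of its list in each arm.

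By the distance between log2 levels centred over the 4 groups, the 3 genes most like TDG and DNMT1, the members of widest range above 1 FPKM in all groups, were found among 10686 protein-coding genes. For TDG they were CHMP3 (distance 0.0338), UBXN4 (0.0463) and IFT88 (0.0475). CHMP3, the nearest, had 57.4 FPKM (siLuc) and 81.6 (siStau1) under DMSO, and 26.3 and 42.2 under DAC. For DNMT1 they were MSH6 (distance 0.0902), ZNF248 (0.108) and CAAP1 (0.108), and MSH6 had 50.2 FPKM (siLuc) and 83.3 (siStau1) under DMSO, and 35.4 and 34.3 under DAC. With 4 values per gene, many genes can look alike.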

How the data were processed

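Total RNA of 8 libraries in 4 groups was used. The other 3 libraries, of J2-bound RNA, come as tables of repeat elements without genes and were not used here. The deposited FPKM, p-values and q-values have the layout of Cuffdiff, per the file headers, with the 2 libraries of a group in 1 value. The deposited test statistic, a score, and the deposited log2 fold change (unit other, infinite where a group is at 0) were not used. The submitters' processing notes name HISAT2 2.1.0, Cuffdiff 2.2.1 and hg38. How the libraries were scaled, and how reads shared by copies were divided, is not given in the sources used here.

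No count or limma fit of libraries was possible, and genes count as called where the deposited q-value is under 0.05. Benjamini-Hochberg adjustment of all 102180 deposited p-values together, 6 comparisons in 1 family, gave back the deposited q-value (largest gap 5.3e-07). The smallest deposited p-value is 5e-05. Python 3.11.15, numpy 2.4.6, pandas 2.3.3 and scipy 1.17.1 were used. Log2 ratios were computed with a pseudocount of 0.1, for members above 0 in all groups. GC centring subtracts the median of 20 bins, set on protein-coding genes of 1 FPKM or more in each group, using the longest transcript in GENCODE 29, in which all 58699 identifiers were found. Adjustment and centring were tested on simulated data.

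All 9 members are described. Genes of other lists are named only if called in an arm, at most 4 per list by size of ratio (GADD45G was added after its values were seen), and 3 genes of like pattern are named for each of 2 members. The members and lists were chosen with earlier results of these data known.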

Additional observations from a re-analysis of the deposited data

How the results depend on the processing

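No paired analysis was possible because the table gives 1 value per group and none per replicate. For the same reason no replicate could be left out. For DAC in siLuc the number of members called, 1 of 8, was 0 with a q-value limit of 0.01, 2 when adjusted within that comparison (TET3 and TET1) and 3 by unadjusted p. For DAC in siStau1 it was 0, and 2 by unadjusted p. Both knockdown counts were 0 under all 4 alternatives tried. The median log2 ratio over the members for DAC in siLuc, 0.06, turned to −0.021 when centred on the median of genes at 1 FPKM or more and to −0.35 when centred on transcript GC (−0.36 with GC of the longest coding transcript, an alternative chosen after seeing the data), and it was 0.25 without TET1, which is under 1 FPKM. For DAC in siStau1 the median of −0.12 became −0.31 and −0.29 with the 2 GC centrings. For knockdown in DMSO it was 0.32, and 0.22 with a pseudocount of 1 and 0.20 with coding-transcript GC. For knockdown in DAC it was −0.16, and −0.049 centred on that median and 0.13 and 0.12 with the GC centrings.

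Of 160 alternative log2 ratios of single members, 146 kept their sign. The 14 that did not came from the 2 GC centrings (transcript, then coding transcript). They were the DAC ratios of DNMT3B (siLuc −0.19, −0.20 and siStau1 −0.21, −0.20) and of TET2 in siStau1 (0.11, 0.20), the knockdown ratio of DNMT3B under DMSO (0.11, 0.12), and the knockdown ratios under DAC of DNMT3B (0.12, 0.13), DNMT1 (0.26, 0.22) and UHRF1 (0.11, 0.12). The difference of the DAC ratio between the arms for TET1, 0.10, was −0.030 with a pseudocount of 1 and −0.057 with transcript GC. The cause of these changes was not tested. Depth is unknown, so the precision of low values such as those of TET1 and DNMT3L cannot be given.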

Other observations

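The annotation around TET3 differs between sources. RefSeq places a start of TET3 at position 73984910 of chromosome 2, while the GENCODE 29 gene starts at 73986404. Between them GENCODE has a separate long non-coding gene on the same strand, AC073046.1 (73985132 to 73986343), which ends 60 bases before TET3. AC073046.1 had 1.14 FPKM (siLuc) and 0.885 (siStau1) under DMSO, and 3.75 and 2.65 under DAC. Both of its DAC values were above both DMSO values, as for TET3, with q-values of 0.530 and 0.571 in the authors' deposited table. How reads at this boundary were divided is not given in the sources used here.

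The GENCODE gene of DNMT1 reaches 36333 bases past its RefSeq start and overlaps S1PR2, a receptor gene on the same strand with 1.26 to 3.37 FPKM. Within TET1 lie the pseudogenes COX20P1, with up to 2.74 FPKM in siStau1 DMSO, and RPS3AP37. The processed pseudogenes TDGP1 and TET1P1, copies of members, had at most 0.163 and 0.0569 FPKM.

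The 3 genes whose pattern was nearest to DNMT1 had a transcript GC content of 40.8% (MSH6), 39.3% (ZNF248) and 37.7% (CAAP1), against 55.4% for DNMT1. MSH6 is a mismatch repair gene.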
